A study of Mus musculus with 158 samples.

Results

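The expression of 9 transcription factor genes of pyramidal neurons and cortical layers was followed through single mouse brain cells: Neurod1, Neurod2, Neurod6, Tbr1, Fezf2, Bcl11a, Bcl11b, Cux1 and Cux2. They were chosen by gene symbol, and each symbol matched 1 of the 21956 gene rows of the count table, so 9 of 21956 rows are described. The libraries came from the polyA RNA of cells each collected with a patch pipette, amplified in 3 rounds as antisense RNA, and no cell was treated. There were 158 libraries from 149 cells, because 9 cells were taken to have 2 libraries each and their counts were added. From primary culture came 8 hippocampal neurons (15 days), 13 cortical neurons (3 cells at 6 days, 3 at 10 days, 4 at 13 days and 3 at 15 days) and 86 cortical astrocytes (3 cells at 7 days, 70 at 12 days, 5 at 14 days and 8 at 15 days). From acute slices came 5 neurons of hippocampal field CA3, 15 of field CA1 and 22 of cortex. Titles of the cortical slice cells began with P in 16 cells and with F in 5, and 1 cell was titled RS10. The labels do not explain these letters, so cells are called P and F here. Of the hippocampal culture titles, M1S and M1D share a number, as do M9S and M9D, with no explanation of the letters S and D, and they were counted as separate cells. Summed as 1 cell each, which leaves 6 cells, they changed no call of a member. The strain was C57/BL6 for the hippocampal cultures and the 7-day astrocytes and C57/BL6/N for all other cells. The labels name no animal, age, donor or culture. Cells therefore do not serve as replicates: a group is a single sample, and no test, p-value or standard error is given.

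Levels are the summed counts of all cells in a group per 1000000 counts of that group (CPM), with the exact Poisson 95% interval, which covers counting error only and not the spread between cells. A gene was called detected in a cell when it kept at least 5 counts after the cell had been thinned at random to 1000000 counts. One CA1 cell of 535369 counts was too shallow for this, which left 14 CA1 cells and 62 neurons for detection. A gene met the size rule between groups when the log2 ratio of summed CPM (plus 1 CPM) was at least 1 in size and the share of cells detecting it differed by at least 20 percentage points in the same direction. The rule is a description of these cells and not a test. Where no cell detected a gene, the count of 0 allows a share of up to 23.1% of 13 cells, 21.4% of 14 and 18.8% of 16 (3 cells). This limit and the floor of 3 counts for levels are one-sided and, at these sizes, lie under the upper ends of the two-sided exact intervals, and both cover counting error only. Cells held 535369 to 38680739 counts, and medians per group ran from 4125370 in CA1 to 15369200 in astrocytes. The median number of genes detected per cell was 7518.5 in hippocampal culture, 4461 in cortical culture, 2163 in CA3, 1898 in CA1, 1620.5 in P cells, 1846 in F cells and 4924.5 in astrocytes. Of 16 neuron marker genes, the median cell detected 7.5 in P cells and 15.5 in hippocampal culture, against 3 in astrocytes. In 6 neurons (2 P, 1 CA1 and 3 of cortical culture) a larger share of astrocyte markers than of neuron markers was detected. This leaves the label neuron less sure for these 6 cells, but neuron markers were not missing from all of them. The 3 cortical neurons of 15 days in culture, 2 of the 6 among them, detected a median of 13 of 16 neuron markers.

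Pyramidal neurons are the excitatory, long-projecting neurons of cortex and hippocampus, and a small set of transcription factors sets them up during development and in part stays on in the adult. Neurod1, Neurod2 and Neurod6 encode basic helix-loop-helix factors that drive the differentiation of glutamatergic neurons, Tbr1 a T-box factor of early-born deep-layer neurons, and Fezf2 a zinc finger factor that specifies subcerebral projection neurons. Bcl11b (Ctip2) marks the same deep-layer neurons, but also CA1 and dentate neurons and many interneurons, and Bcl11a (Ctip1) is its close relative. Cux1 and Cux2 encode cut-homeobox factors of upper-layer neurons, and Cux1 is also used widely outside neurons.

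Proteins of the NeuroD family bind the E-box CANNTG, with a known preference for CAGATG. Neurod2 and Neurod6 were the members detected in all 5 CA3 cells, and the 250 bases before their start sites are shown for that reason, 5′ to 3′ on the gene's strand, from RefSeq (GRCm38.p6). All 9 members matched this promoter table. The windows lie at chr11:98329646-98329895 (Neurod2, minus strand) and chr6:55681264-55681513 (Neurod6, minus strand). Capitals mark CAGATG, searched on both strands.
Neurod2: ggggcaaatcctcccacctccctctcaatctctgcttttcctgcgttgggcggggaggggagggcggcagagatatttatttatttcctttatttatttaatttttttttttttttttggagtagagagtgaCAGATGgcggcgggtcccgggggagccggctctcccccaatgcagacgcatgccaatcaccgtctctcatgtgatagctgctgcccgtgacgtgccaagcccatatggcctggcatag
Neurod6: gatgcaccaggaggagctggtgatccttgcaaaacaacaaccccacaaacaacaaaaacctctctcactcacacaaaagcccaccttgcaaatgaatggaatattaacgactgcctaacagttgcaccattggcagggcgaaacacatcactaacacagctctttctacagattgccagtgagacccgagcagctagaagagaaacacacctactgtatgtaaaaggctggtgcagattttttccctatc
The Neurod2 window held 1 CAGATG and 3 CANNTG, of which CAGATG is a case. The Neurod6 window held 0 CAGATG and 2 CANNTG. Among all 32851 RefSeq promoter windows of 250 bases, 14.4% held CAGATG and 66.2% held CANNTG. A match of letters is a description and not a bound site.

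By the annotation of the same build (GRCm38, GENCODE M21), the genes lie as follows. Neurod1 is at chr2:79452521-79456751 (minus strand), Neurod2 at chr11:98325415-98329648 (minus strand) and Neurod6 at chr6:55677822-55681263 (minus strand). Tbr1 is at chr2:61802930-61814114 (plus strand) and Fezf2 at chr14:12342094-12348189 (minus strand). Bcl11a is at chr11:24078056-24174123 (plus strand) and Bcl11b at chr12:107910403-108003602 (minus strand). Cux1 is at chr5:136248135-136567490 (minus strand) and Cux2 at chr5:121856366-122050102 (minus strand). Exons of Neurod1 overlap those of Cerkl on the same strand over 201 bases and of Gm26755 on the other strand over 154 bases. Exons of antisense genes overlap those of Bcl11a (4930538E20Rik) and Cux1 (Gm16599, 394 bases). The strand setting of the counting is not given in the sources used here, so reads from these stretches cannot be told apart. The Cux1 locus has 14 annotated transcripts, which the counts do not separate.

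The 3 NeuroD genes had their highest summed levels in CA3. Neurod1, which acts early in neuronal differentiation, had 209.1 CPM in CA3 (203.7 to 214.5), 11.3 in cortical slice, 10.3 in cortical culture, 7.77 in hippocampal culture, 4.68 in CA1 and 1.06 in astrocytes. This CA3 level came from 2 of the 5 CA3 cells. Neurod2, which acts later in the maturation of excitatory neurons, had 2177 CPM in CA3 (2160 to 2195), 425.9 in CA1, 77.1 in cortical culture, 64.5 in cortical slice, 18.8 in hippocampal culture and 0.00627 in astrocytes. Most of the CA3 level of Neurod2 came from a single cell, CA3-8 (5482 CPM). Without that cell CA1 was higher, with a log2 ratio of CA3 over CA1 of -0.71. Neurod6, a marker of differentiated pyramidal neurons, had 363.5 CPM in CA3 (356.4 to 370.7), 321.8 in CA1, 44.7 in cortical slice, 26.4 in cortical culture, 13.7 in hippocampal culture and 0.0157 in astrocytes. Astrocytes, which are not expected to use the NeuroD programme, held 8 Neurod2 counts and 20 Neurod6 counts in all 86 cells.

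The deep-layer genes had different orders. Tbr1 had 222.4 CPM in CA1, 114.2 in cortical slice, 12.3 in hippocampal culture, 2.65 in cortical culture, 0.933 in astrocytes and 0.109 in CA3. Fezf2 had 80.96 CPM in cortical slice, 2.84 in astrocytes, 0.739 in hippocampal culture, 0.583 in CA3, 0.177 in cortical culture and 0.0514 in CA1. Bcl11b had 2798 CPM in CA3, 648.9 in CA1, 397.6 in cortical slice, 252.3 in hippocampal culture, 135.0 in cortical culture and 1.66 in astrocytes. The CA3 value of Bcl11b came almost whole from a single cell, CA3-8, which held 99.999% of its counts. Bcl11a had 254.1 CPM in cortical culture, 66.8 in hippocampal culture, 57.999 in cortical slice, 35.7 in CA1, 24.6 in CA3 and 1.76 in astrocytes.

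The upper-layer genes were highest in hippocampal culture. Cux1 had 71.1 CPM in hippocampal culture, 52.1 in astrocytes, 37.4 in cortical culture, 23.004 in CA1, 18.7 in CA3 and 16.1 in cortical slice. Cux2 had 38.9 CPM in hippocampal culture, 17.0 in cortical culture, 6.40 in cortical slice, 0.328 in CA3, 0.113 in astrocytes and 0.0128 in CA1, where a single count was found. For all 9 genes, the ranges of single cells overlapped between every pair of neighbours in these orders, so the orders describe the sums and no step in them exceeds the spread between cells. The map of levels by cell shows that most sums rest on a few bright cells.

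**Figure D1:**
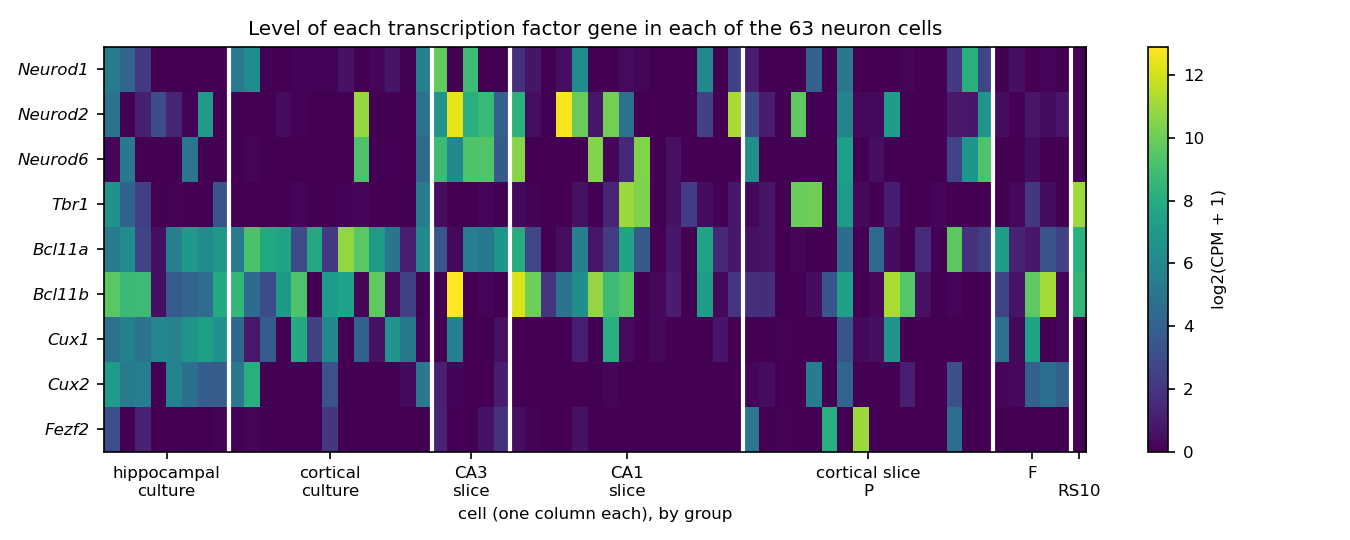
Level of each of the 9 genes in each of the 63 neurons, as log2(CPM + 1), with 1 column per cell and cells grouped by source. Most columns are dark for most genes; the 5 CA3 cells are bright for Neurod2 and Neurod6, and the 8 hippocampal culture cells for Cux1.

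The number of the 9 genes detected in a cell differed between groups. The median was 5 in hippocampal culture, 3 in cortical culture, 4 in CA3, 2 in CA1, 2 in P cells, 2 in F cells and 1 in astrocytes. The highest number was 8, in the P cell P2 and the hippocampal culture cell M1D. No member was detected in 4 of 16 P cells, 1 of 5 F cells and 4 of 14 CA1 cells. All cells of CA3 and of both cultures of neurons detected at least 1. Among astrocytes 19 of 86 detected none and 52 detected 1. Fewer genes in all were detected in slice neurons than in cultured neurons, and the part of this in the number of members was not tested.

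**Figure D2:**
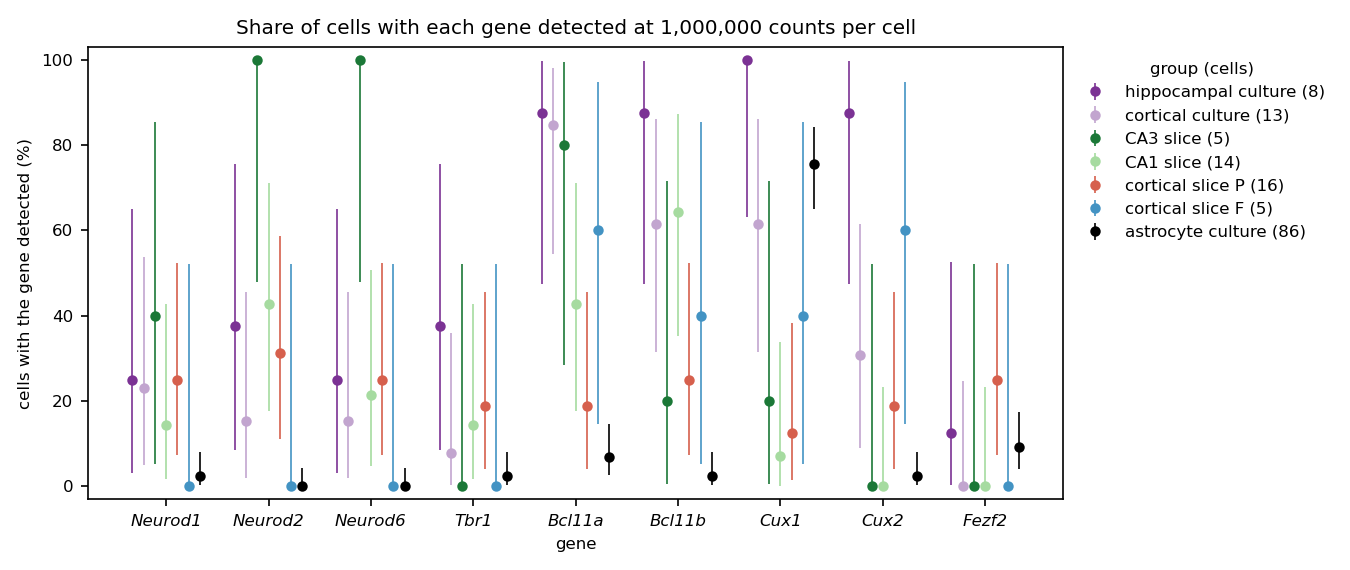
Percentage of cells in which each gene was detected at 1000000 counts per cell, with exact Clopper-Pearson 95% intervals (counting error only), by group with its number of cells. Neurod2 and Neurod6 stand at 5 of 5 cells in CA3, Cux1 at 8 of 8 in hippocampal culture, and Fezf2 at 4 of 16 in P cells and 0 of 5 in F cells.

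P and F cells of the cortical slice differed in the NeuroD genes and Fezf2. Of the 9 members, 4 met the size rule as higher in P cells, against 7.82% of the 11001 genes measured, and 2 as lower, against 12.2%. The members' median log2 ratio was 3.96, against 0.80 for all genes. Beside this, Gad1, which makes the transmitter GABA, was detected in 2 of 16 P cells and 5 of 5 F cells. Slc32a1, the vesicular GABA transporter, was detected in 0 of 16 P cells and 5 of 5 F cells. Slc17a7, the vesicular glutamate transporter of cortical excitatory neurons, was detected in 10 of 16 P cells and 1 of 5 F cells.

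Neurod2 showed the difference in the most P cells. Its level in single P cells ran from 0 through a median of 0.513 to 825.5 CPM, and 5 of 16 detected it (P16 at 825.5, P22 at 146.6, P5 at 108.3, P2 at 52.5 and P1 at 6.38 CPM). F cells held 0.337, 0.723, 0.332, 0.690 and 0 CPM in F1, F2, F6, F7 and F11, and none detected it. The groups overlapped: 8 of 16 P cells lay above the highest F cell and the other 8 were within the range of the F cells. The summed level was 93.5 CPM in P (91.6 to 95.3) and 0.418 in F (0.251 to 0.652), a log2 ratio of 6.06. Before thinning, 10 of 16 P cells and 4 of 5 F cells held at least 1 count.

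Neurod6 was detected in 4 of 16 P cells (P5 at 616.5, P2 at 155.5, P4 at 109.6 and P1 at 83.1 CPM), with a median of 0 over P cells. F2 held 0.361 CPM and the other F cells held 0. The F cells had 2 counts together, which gives a ratio of 1474 with a counting interval of 408 to 12175. Neurod1 was detected in 4 of 16 P cells (P4 at 286.3, P2 at 33.4, P17 at 14.5 and P5 at 5.56 CPM). F cells held 0.0674, 0, 0.166, 0 and 0.456 CPM in F1, F2, F6, F7 and F11. The summed level of Neurod1 was 16.3 CPM in P (15.5 to 17.1) and 0.1099 in F (0.0357 to 0.256), a log2 ratio of 3.96. The cells bright for the 3 NeuroD genes were in part the same: 3 P cells detected both Neurod1 and Neurod6, of 4 with each, and 3 detected both Neurod2 and Neurod6, of 5 and 4.

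Fezf2 was detected in 4 of 16 P cells and 0 of 5 F cells. The 4 P cells were P20 at 1987 CPM, P19 at 274.4, P1 at 32.1 and P33 at 24.3 CPM. P15 held 0.0937 CPM, and the other 11 P cells and all F cells had no count. The summed level was 117.5 CPM in P (115.4 to 119.6) and 0 in F, at least 1781-fold higher in P against a floor of 3 counts over the F cells (0.0659 CPM). Of the P counts, 77.5% came from P20, and without that cell the log2 ratio was 4.84. Tbr1 had 130.2 CPM in P (128.0 to 132.4) and 0.484 in F (0.303 to 0.732), a log2 ratio of 6.47, but was detected in only 3 of 16 P cells and 0 of 5 F cells. With a difference of 18.8 percentage points it missed the size rule, which it met within basecalling v1.8.4 (5.27) and without the cells under 1000 genes (7.01). The 3 cells were P17 at 1080 CPM, P16 at 970.4 and P2 at 140.8, while the highest F cell was F2 at 3.07. The cortical cell RS10, outside both sets, held 2054 CPM of Tbr1, the highest of all cortical slice cells.

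Bcl11 and Cux genes were found in both sets. Bcl11a had 57.5 CPM in P and 49.7 in F (log2 ratio 0.21), and 3 of 16 P cells and 3 of 5 F cells detected it. In P cells 91.7% of its counts came from P33 (793.5 CPM), without which the log2 ratio was -3.05 and met the rule as lower, while without F1 it was 3.24. Bcl11b had 273.2 CPM in P and 686.1 in F (log2 ratio -1.33), with 4 of 16 and 2 of 5 cells, and missed the rule. Its F values were 4.99, 824.1, 2207, 0.115 and 0.683 CPM in F1, F2, F6, F7 and F11, so F2 and F6 were high and the other F cells were at or under 4.99. Bcl11b without P22 (2416 CPM) had a log2 ratio of -3.04, which met the rule as lower, while without F6 it was 0.97. Its call also changed with another seed of the thinning and with detection at 1 count, and 16 of 25 alternatives kept it.

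Cux1 and Cux2 met the rule as lower in P cells. Cux2 had 4.40 CPM in P (4.00 to 4.82) and 11.3 in F (10.3 to 12.3), a log2 ratio of -1.18, and 3 of 16 P cells and 3 of 5 F cells detected it. Its F values were 0.135, 14.6, 24.99, 14.6 and 0.228 CPM in F1, F2, F6, F7 and F11, and its P values ran from 0 through a median of 0 to 40.9 CPM. The highest Cux2 cell was a P cell, and all F values lay inside the range of the P cells. Cux1 had 10.2 CPM in P and 30.4 in F, a log2 ratio of -1.49, with 2 of 16 and 2 of 5 cells. Neither held without 1 cell: without F2 (177.6 CPM) the log2 ratio of Cux1 was 0.017, and without F6 that of Cux2 was -0.44. Cux1 also missed the rule without F1.

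**Figure D3:**
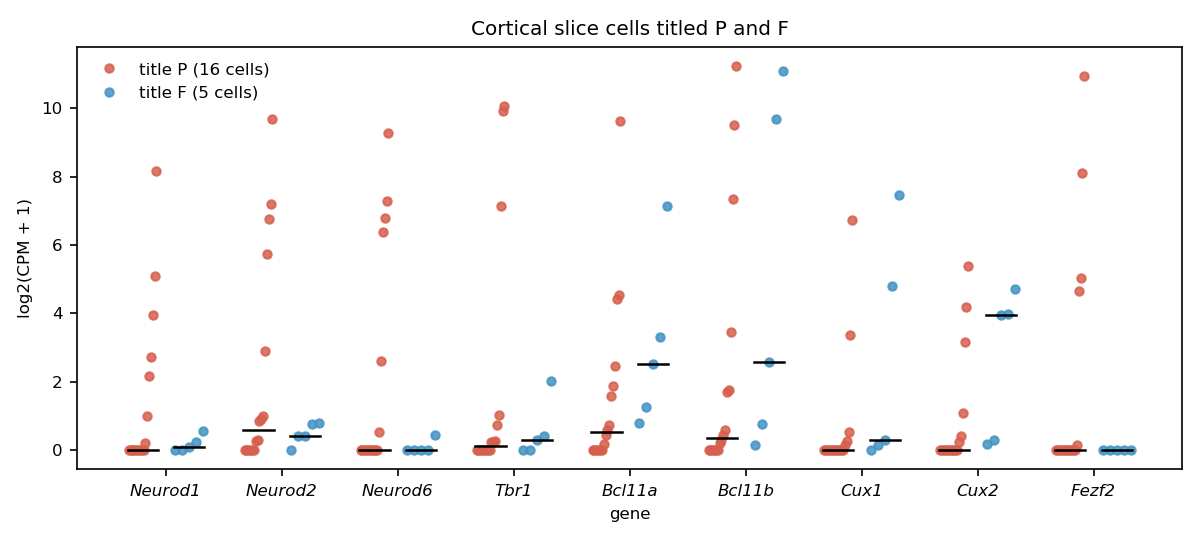
Level of each gene in the 16 P cells and 5 F cells of the cortical slice, as log2(CPM + 1); each point is a cell and the black line is the median. All points of Neurod1, Neurod2, Neurod6 and Fezf2 above 1 on this scale are P cells, while Bcl11b and Cux1 have high points in both sets.

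Other values moved with the P and F titles. Fewer than 1000 genes were detected in 6 of 16 P cells and 0 of 5 F cells. Without those cells Cux1 and Cux2 missed the rule, at log2 ratios of -0.99 and -0.75. Of the 16 neuron markers, 6 met the rule as lower in P and 2 as higher. The part of RNA quality in these differences was not tested. At least 3 of 10 microglia markers were detected in 6 of 16 P cells and 0 of 5 F cells, and the summed level of the list ran from 0.420 through 1360 to 15291 CPM in P cells and from 0.456 through 5.15 to 78.7 CPM in F cells. Of the 10 microglia markers, 8 met the rule as higher in P. Without the neurons with such markers, the log2 ratios were 4.63 for Neurod2, 6.08 for Neurod6, 1.12 for Neurod1 and 7.47 for Fezf2. All 4 still met the rule. In this setting Cux1 missed the rule, and Bcl11a, which had missed it with all cells, met it. Basecalling software was v1.8.4 for libraries of 5 P and 3 F cells and v2.17 for libraries of 12 P and 3 F cells, since P1 and F1 each had a library of either version. Within a version, only the libraries of that version were used. Within v1.8.4 the log2 ratios were 5.15 for Neurod2, 7.58 for Neurod6, 5.57 for Neurod1 and 1.85 for Fezf2. Within v2.17 they were 6.27, 2.54, 0.85 and 7.38 in the same order of genes. The direction was P higher in both, but Fezf2 in v1.8.4 and Neurod6 and Neurod1 in v2.17 missed the rule. Within v2.17 Cux1 had a log2 ratio of -0.03. Cux2 missed the rule within either version. Of the 6 members called, Neurod2 alone met the rule under all alternatives run.

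In hippocampal slice, Neurod2 and Neurod6 were detected in all 5 CA3 cells, at levels that differed widely, and Neurod1 in 2 of them. The comparisons of CA3 and CA1 with P cells share the P cells, and are given side by side. Against P cells, CA3 had 2 members higher (background 10.2% of 10450 genes measured) and 1 lower (9.34%), with a median log2 ratio of 0.82 against -1.19 for all genes. CA1 had 1 member higher (3.09% of 11878 genes) and 1 lower (4.77%), with a median of 0.77 against -0.26. Between the fields, CA3 had 2 members higher than CA1 (14.1% of 9378 genes) and 0 lower (11.2%), with a median of 0.39 against -0.70.

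Neurod2 held 104.5, 5482, 279.2, 417.9 and 14.8 CPM in the CA3 cells CA3-2, CA3-8, CA3-9, CA3_10 and CA3_21. Every CA3 cell detected it, and the lowest was CA3_21. CA1 cells ran from 0 through a median of 0.727 to 6647 CPM, and 6 of 14 detected it. The log2 ratio of summed CPM was 4.53 for CA3 over P (2177 and 93.5 CPM), 2.35 for CA3 over CA1 (2177 and 425.9 CPM) and 2.18 for CA1 over P. CA3-8 carried 92.4% of the CA3 counts. Without it CA3 over P was still 1.47 and met the rule, but CA3 over CA1 was -0.71. Within basecalling v2.17, CA3 over CA1 was 3.21, and within v1.8.4, with 1 CA3 cell, it was -2.79. The CA1 level was carried by CA1-17 (6647 CPM), CA1_41 (2397), CA1-4 (1127), CA1-18 (961.4) and CA1-14 (307.7), while 6 of the 15 CA1 cells had no Neurod2 count.

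Neurod6 held 449.7, 68.6, 657.3, 677.8 and 11.7 CPM in the same order of CA3 cells, and all 5 detected it. In CA1 it was detected in 3 of 14 cells, CA1-14 at 1520, CA1-3 at 1445 and CA1_20 at 1417 CPM, and the next highest CA1 cell held 1.83 CPM. CA3 and CA1 thus had near sums of 363.5 and 321.8 CPM, a log2 ratio of 0.18, reached by 5 of 5 cells in CA3 and by 3 of 14 in CA1. Over P cells (64.8 CPM) the log2 ratio was 2.47 for CA3, which met the rule, and 2.29 for CA1, which did not. Neurod1 held 879.0 and 480.1 CPM in CA3-2 and CA3-9 and 0 in the other 3 CA3 cells. Its log2 ratio was 5.21 for CA3 over CA1 (209.1 and 4.68 CPM), which met the rule with 2 of 5 and 2 of 14 cells but not without CA3-2 or without CA3-9.

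Tbr1 and Fezf2 were near 0 in CA3. Tbr1 had 3 counts in CA3, against 222.4 CPM in CA1 and 130.2 CPM in P, and 0 of 5 CA3 cells detected it. In CA1 it came from CA1-5 (1985 CPM) and CA1_20 (1364 CPM), and 2 of 14 cells detected it. These differences missed the rule, because so few cells of CA1 and P detected the gene. Fezf2 was not detected in 5 CA3 cells (0.583 CPM) or in 14 CA1 cells (0.0514 CPM), against 4 of 16 P cells (117.5 CPM). Its log2 ratio was -6.23 for CA3 over P and -6.82 for CA1 over P, and both met the rule as lower. Within basecalling v2.17 these were -6.90 and -7.30, and within v1.8.4, where P20 and P19 are absent, -0.58 and -1.80, which missed the rule.

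Bcl11b was detected in 1 of 5 CA3 cells, in 9 of 14 CA1 cells and in 4 of 16 P cells. CA1 cells ran from 0 through 29.1 to 4717 CPM, and the sum was 648.9 CPM (643.3 to 654.6), against 273.2 in P (270.1 to 276.4), a log2 ratio of 1.24 that met the rule. Without CA1-14 it was 0.39. Within v2.17 it was 0.53 and within v1.8.4 it was 3.45. At least 3 microglia markers were detected in 8 of 14 CA1 cells and 6 of 16 P cells, and without those cells the log2 ratio turned to -2.17. In CA3 the cell CA3-8 held 7620 CPM of Bcl11b and the other CA3 cells at most 0.133. Without CA3-8 the log2 ratio of CA3 over P was -8.02. Bcl11a was detected in 4 of 5 CA3 cells (9.56, 0.198, 44.4, 36.2 and 113.8 CPM in the order above), 6 of 14 CA1 cells and 3 of 16 P cells. Its summed levels were 24.6, 35.7 and 57.5 CPM and met no rule. The P value rested on P33: without that cell the log2 ratio was 2.06 for CA3 over P and 2.58 for CA1 over P, and both met the rule as higher.

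The Cux genes were sparse in hippocampal slice. Cux1 was detected in 1 of 5 CA3 cells (CA3-8, 50.7 CPM) and 1 of 14 CA1 cells (CA1-4, 271.9 CPM). Cux2 was detected in no CA3 or CA1 cell. Cux2 counts numbered 9 over the CA3 cells and 1 over the CA1 cells. With the single CA1 count, the counting interval of the ratio of CA1 to P was 7.38e-05 to 0.0164, which leaves out the spread between cells. Cux2 missed the rule for CA1 over P, with 0 of 14 and 3 of 16 cells. Of a list of 12 hippocampal field genes, 10 were measured between the fields. Of these, 3 met the rule as higher in CA3 than CA1 (background 14.1%) and 1 as lower (11.2%). The median log2 ratio of the list was -1.42, against -0.70 for all genes. Zbtb20, a factor of hippocampal pyramidal neurons, was on this list. It was detected in 5 of 5 CA3 cells (1116 CPM), 9 of 14 CA1 cells (328.6 CPM) and 2 of 16 P cells (32.8 CPM). Zbtb20 also met the rule as lower in cultured cortical neurons than in astrocytes. Fibcd1, a marker of CA1, was detected in 4 of 14 CA1 cells and in no CA3 or P cell. No CA3 cell had 3 or more microglia markers, and none detected Gad1 or Slc32a1.

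Between culture and slice of cortical neurons, 2 of the 9 members (Bcl11a and Cux1) met the rule as higher in culture, a share near the 19.2% of the 13741 genes measured, and 0 as lower, against 1.39%. The median log2 ratio of the members was -0.11, against 0.24 for all genes, and the median difference in detection was 3.50 percentage points for the members and 9.44 for all genes. Bcl11a was detected in 11 of 13 cultured cells and 7 of 22 slice cells. Cultured cells ran from 1.09 through 136.6 to 1788 CPM and slice cells from 0 through 1.05 to 793.5 CPM. The sums were 254.1 CPM in culture (252.0 to 256.3) and 57.999 in slice (56.8 to 59.2), a log2 ratio of 2.11. It was 1.37 without the highest cultured cell (J10_11), 1.12 within basecalling v2.17 and 3.99 within v1.8.4, and met the rule each time. Cux1 was detected in 8 of 13 cultured cells and 4 of 22 slice cells, with 37.4 and 16.1 CPM and a log2 ratio of 1.17. Without its highest cultured cell (236.6 CPM) this was 0.56, and within v1.8.4 it was 0.59, and both missed the rule. Under edgeR and DESeq2 scaling it was 0.91 and 0.87, and missed the rule as well. In all, Cux1 kept its call in 14 of 22 alternatives. Neurod1 and Cux2 missed the rule with all cells, at log2 ratios of -0.11 and 1.29. Both met it as higher within v2.17 and as lower within v1.8.4.

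Fezf2, Tbr1 and Bcl11b had lower sums in cortical culture but missed the rule on the share of cells. Fezf2 had 0.177 CPM in culture and 80.96 in slice (log2 ratio -6.12), with 0 of 13 and 4 of 22 cells. It met the rule as lower within v2.17, without neurons with more astrocyte than neuron markers, and without those under 1000 genes. Tbr1 had 2.65 and 114.2 CPM (log2 ratio -4.98), with 1 of 13 and 4 of 22 cells, and met the rule as lower only with detection at 1 count. Bcl11b had 135.0 and 397.6 CPM (log2 ratio -1.55), but was detected in 8 of 13 cultured and 7 of 22 slice cells, so the sum and the share of cells went in opposite directions. Neurod2 had 77.1 and 64.5 CPM (log2 ratio 0.25). In culture 97.8% of the Neurod2 counts and 95.1% of the Neurod6 counts came from 1 cell, J15_12, at 1884 and 626.3 CPM. Slice and cultured cortical neurons also differed in transmitter markers: Gad1 was detected in 7 of 13 cultured and 7 of 22 slice cells, and Slc17a7 in 2 of 13 and 12 of 22.

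Culture ages held 3 or 4 cortical neurons each, and they coincide with basecalling versions, v1.8.4 at 6 and 15 days and v2.17 at 10 and 13 days. Bcl11a had 1068 CPM at 6 days, 163.6 at 10 days, 171.5 at 13 days and 25.5 at 15 days. All 3 cells detected it at 6 days, all 3 at 10 days, 3 of 4 at 13 days and 2 of 3 at 15 days. Bcl11b was detected in 2 of 3 cells at 6 days, 2 of 3 at 10 days, 4 of 4 at 13 days and 0 of 3 at 15 days. Cux2 had no count at 6 and 10 days, was detected in 3 of 4 cells at 13 days and in 1 of 3 at 15 days. At 15 days, 2 of the 3 cells detected a larger share of astrocyte than of neuron markers, and all 3 at least 3 microglia markers. With so few cells these values are a description only.

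**Figure D4:**
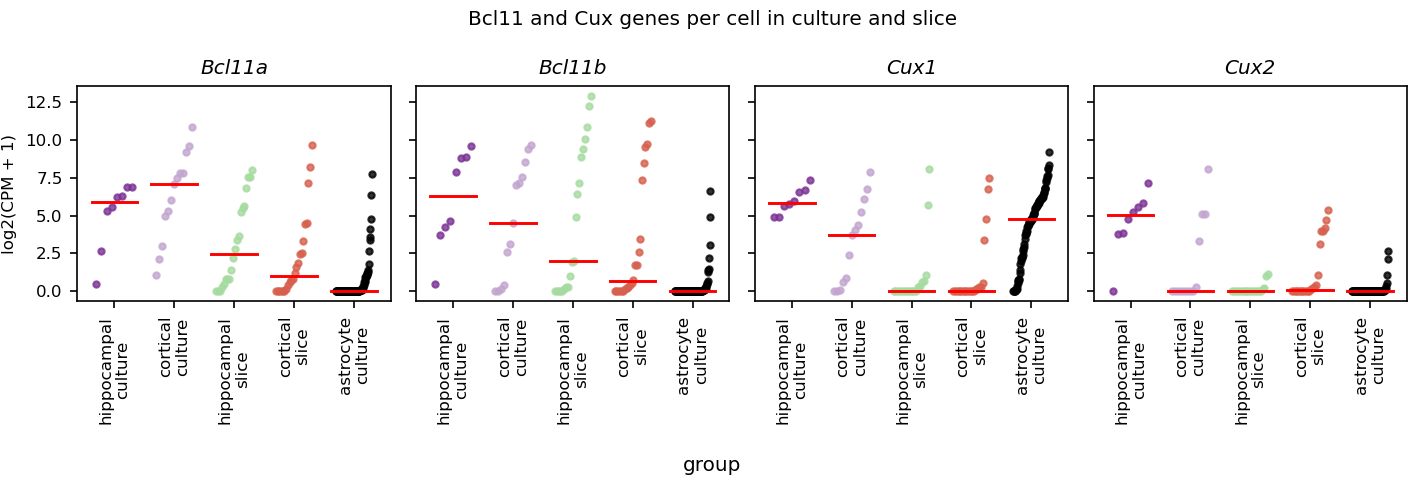
Level of Bcl11a, Bcl11b, Cux1 and Cux2 in single cells, as log2(CPM + 1), in neurons of hippocampal and cortical culture, hippocampal slice (CA1 and CA3) and cortical slice, and in astrocytes of culture; red lines are medians. The Cux1 median is 56.97 CPM in hippocampal culture and 25.9 CPM in astrocytes, and Cux2 is near 0 in hippocampal slice.

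Hippocampal neurons of culture were set against those of slice (CA1 and CA3 together, 19 cells with detection). The strain was C57/BL6 in culture and C57/BL6/N in slice. All 8 cultured cells were basecalled with v2.17, while 6 of the 20 slice cells had a v1.8.4 library. Of the 9 members, 3 (Bcl11a, Cux1 and Cux2) met the rule as higher in culture, no more than the 40.1% of the 13121 genes measured, and 1 (Neurod2) as lower, against 0.892%. The median log2 ratio was -2.26 for the members and 0.84 for all genes. The median difference in detection was 26.97 percentage points for the members and 41.4 for all genes, so most genes were detected in more cells of culture. Cux2 was detected in 7 of 8 cultured and 0 of 19 slice cells. Cultured cells ran from 0 (M9D) through 31.6 to 140.7 CPM (M1D). The sums were 38.9 CPM in culture (37.6 to 40.2) and 0.0950 in slice, a log2 ratio of 5.19, which was 4.88 without M1D. Cux1 was detected in all 8 cultured cells, from 28.3 through 56.97 to 158.7 CPM, and in 2 of 19 slice cells. Its log2 ratio was 1.66 (71.1 and 21.9 CPM), but 0.72 with edgeR scaling and 0.55 with DESeq2 scaling. Bcl11a had 66.8 and 32.8 CPM (log2 ratio 1.00), with 7 of 8 and 10 of 19 cells, and stood at the edge of the rule: it was -0.11 with DESeq2 scaling and 0.79 without N5S, its highest cultured cell.

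Neurod2 had 18.8 CPM in hippocampal culture (17.9 to 19.7) and 882.5 in slice, a log2 ratio of -5.48. It was detected in 3 of 8 cultured cells (P1S at 140.8, M1D at 29.1 and M9D at 7.31 CPM) and in 11 of 19 slice cells. Without CA1-17 the log2 ratio was -5.24, but the difference in detection fell under the 20 percentage points of the rule. Neurod2 also missed the rule within basecalling v2.17, with detection at 1 count, at a depth of 500000 and without the deepest cells. In all, 16 of 21 alternatives kept its call. Neurod6 had a log2 ratio of -4.51, with 2 of 8 and 8 of 19 cells, and missed the rule. Bcl11b had a log2 ratio of -2.26 but was detected in 7 of 8 cultured and 10 of 19 slice cells. All 8 cultured hippocampal cells detected both Gad1 (4297 to 11974 CPM) and Slc32a1, and 11 of the 14 inhibitory marker genes measured met the rule as higher in culture. The part of these transmitter genes in the differences of the members was not tested.

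Between hippocampal and cortical neurons in culture, 2 of the 9 members (Tbr1 and Cux2) met the rule as higher in hippocampal culture, near the 23.8% of the 13485 genes measured, and 0 as lower, against 3.01%. The median log2 ratio was 0.56 for the members and 0.15 for all genes. All 9 members were detected in a larger share of hippocampal cells, with a median difference of 22.1 percentage points against 23.1 for all genes. Cux2 had 38.9 CPM in hippocampal and 17.0 in cortical culture (log2 ratio 1.15), with 7 of 8 and 4 of 13 cells. Tbr1 had 12.3 and 2.65 CPM (log2 ratio 1.87), with 3 of 8 and 1 of 13 cells. Neither met the rule without M1D, where the log2 ratios were 0.83 and 0.95. All 8 hippocampal cells and 7 of the 13 cortical cells were basecalled with v2.17. Within v2.17 Cux2 missed the rule, while Tbr1, Neurod2 and Neurod6 met it. Cux2 also missed it under edgeR and DESeq2 scaling, and kept its call in 13 of 22 alternatives. The strain differed as well, C57/BL6 for hippocampal and C57/BL6/N for cortical culture. At 15 days alone, the age both share, 3 cortical cells remain, and the log2 ratio was 2.22 for Cux2 and 0.32 for Tbr1. These 3 cells were all basecalled with v1.8.4, and each detected at least 3 microglia markers. In 2 of them a larger share of astrocyte than of neuron markers was detected. Bcl11a was lower in sum in hippocampal culture (66.8 against 254.1 CPM, log2 ratio -1.91), but similar shares of cells detected it, 7 of 8 and 11 of 13, and at 15 days alone its log2 ratio was 1.36.

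In cortical culture, neurons had higher Bcl11a, Bcl11b, Cux2 and Neurod1 than astrocytes. These 4 members met the rule, against 5.17% of the 17473 genes measured, and 0 were lower, against 14.2%. The median log2 ratio was 4.02 for the members and -0.08 for all genes. Bcl11a had 254.1 CPM in neurons and 1.76 in astrocytes (1.69 to 1.83), a log2 ratio of 6.53, with 11 of 13 and 6 of 86 cells. Bcl11b had 135.0 and 1.66 CPM (log2 ratio 5.68), with 8 of 13 and 2 of 86 cells. Cux2 had 17.0 and 0.113 CPM (log2 ratio 4.02), with 4 of 13 and 2 of 86 cells. Neurod1 had 10.3 and 1.06 CPM (log2 ratio 2.46), with 3 of 13 and 2 of 86 cells, and missed the rule without its highest neuron. Neurod1 also missed the rule without neurons with microglia markers and with the J6 titles counted as separate cells. Without the neurons with more astrocyte than neuron markers, both Cux2 and Neurod1 missed the rule. At 15 days alone, with 3 neurons and 8 astrocytes, Bcl11b had a log2 ratio of 0.85 and missed the rule, while Bcl11a had 4.44 and met it. Of these 3 neurons, 2 detected a larger share of astrocyte than of neuron markers. All astrocytes and 7 of the 13 neurons were basecalled with v2.17, and within that version the log2 ratios were 5.94 for Bcl11a and 5.91 for Bcl11b.

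Cux1 was the member most astrocytes detected. It was found in 8 of 13 neurons and 65 of 86 astrocytes, with 37.4 CPM in neurons (36.6 to 38.3) and 52.1 in astrocytes (51.7 to 52.5), a log2 ratio of -0.47. Astrocytes ran from 0 through 25.9 to 583.1 CPM. Across culture ages Cux1 was detected in 2 of 3 astrocytes at 7 days, 53 of 70 at 12 days, 5 of 5 at 14 days and 5 of 8 at 15 days. For Fezf2 the numbers were 0 of 13 neurons and 8 of 86 astrocytes, with 0.177 and 2.84 CPM (log2 ratio -1.71). The highest Fezf2 astrocytes held 74.02 and 43.8 CPM. Neurod2 and Neurod6 were detected in no astrocyte, which allows shares of up to 3.49%.

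Members were also set beside the transmitter markers of the same cell. Of the 62 neurons, 20 detected Slc17a7 only, 20 detected Gad1 or Slc32a1 only, 8 detected both kinds and 14 neither. Fezf2 was detected in 5 neurons, of which 4 had Slc17a7 only and 1 both. Neurod6 was detected in 16, of which 10 had Slc17a7 only, 2 both, 2 the inhibitory markers only and 2 neither. Neurod1 was detected in 13, of which 8 had Slc17a7 only, 2 both, 2 the inhibitory markers only and 1 neither. Neurod2 was detected in 21, of which 9 had Slc17a7 only, 3 both, 3 the inhibitory markers only and 6 neither. Tbr1 was detected in 10, of which 4 had Slc17a7 only, 2 both, 2 the inhibitory markers only and 2 neither. Cux1 had the smallest share with Slc17a7 only: of its 22 neurons, 2 had Slc17a7 only, 5 both, 10 the inhibitory markers only and 5 neither. Cux2 was detected in 17, of which 4 had Slc17a7 only, 3 both, 9 the inhibitory markers only and 1 neither. Bcl11a, in 35 neurons, had 12 with Slc17a7 only and 13 with the inhibitory markers only, and Bcl11b, in 32, had 7 and 12. The markers move with the source of the cells: of 21 cultured neurons 2 had Slc17a7 only and 12 the inhibitory markers only, against 18 and 8 of 41 slice neurons. Within slice, Neurod6 was found in 12 neurons, 9 of them with Slc17a7 only, and Fezf2 in 4, all with Slc17a7 only. Cux1 in slice was found in 6 neurons, 1 with Slc17a7 only and 1 with the inhibitory markers only, while in culture 9 of its 16 neurons had the inhibitory markers only.

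**Figure D5:**
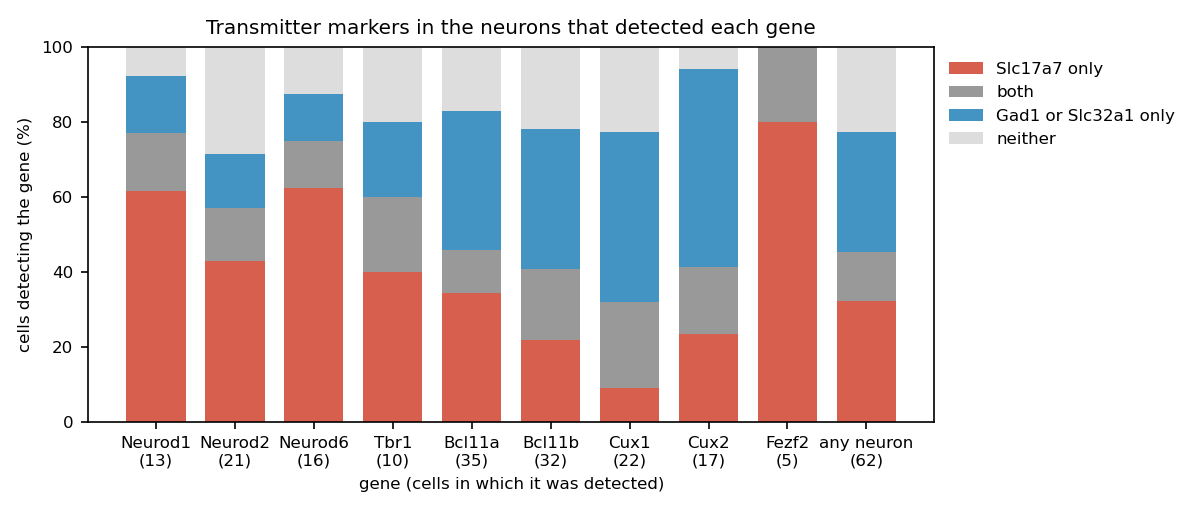
Of the neurons that detected each gene (number below its name), the percentage with Slc17a7 only, with both kinds of marker, with Gad1 or Slc32a1 only, and with neither; the last bar is all 62 neurons. Fezf2, Neurod1 and Neurod6 have the largest shares with Slc17a7 only, and Cux1 the smallest.

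Members were found together in part of the cells. Neurod2 and Neurod6 were both detected in 11 neurons, of 21 with Neurod2 and 16 with Neurod6. Bcl11a and Bcl11b were both detected in 22, of 35 and 32, and Cux1 and Cux2 in 11, of 22 and 17. Fezf2 and Bcl11b, which mark the same projection neurons in cortex, were both detected in 2 neurons, of 5 and 32, and Fezf2 and Tbr1 in 1, of 5 and 10. Across the 62 neurons, log2 counts at the common depth correlated between members with r from -0.17 (Neurod6 and Cux1) to 0.38 (Neurod2 and Neurod6). The cells of a group share their source but differ in total counts, and such correlations in sparse counts are a description.

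The genes with the most similar pattern to each member over the 62 neurons were taken from 7541 genes detected in at least 10 of them, by Pearson's r of log2 counts, at r of 0.5 or more. They were Apbb3 (0.61) for Neurod1, Arl6ip6 (0.59) for Neurod6, Cap2 (0.53) for Tbr1, Map3k5 (0.63) for Fezf2, Eif4a1 (0.61) for Bcl11a and Pfdn5 (0.55) for Bcl11b. Dynlt1b (0.71) was closest to Cux1 and Txndc9 (0.80) to Cux2. No gene reached 0.5 with Neurod2. Each r is the highest over these 7541 genes in sparse counts, so the values are a description only. Fezf2 was detected in 5 of the 62 neurons, 4 of them with Map3k5, and Tbr1 in 10, 9 of them with Cap2. Cultured neurons, in which Cux1 and Cux2 were most often detected, also had the most genes detected per cell.

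Other transcription factors of projection neurons were given from a list of 26. Between P and F cells, 3 of 23 measured met the rule as higher in P (background 7.82%) and 0 as lower (12.2%). Zbtb18 had 502.9 CPM in P and 0.242 in F, with 7 of 16 and 0 of 5 cells. Pou3f2, an upper-layer POU factor, had 480.4 CPM in P and 0.198 in F, with 5 of 16 and 0 of 5 cells. Against P cells, CA3 had 3 higher (background 10.2%) and 4 lower (9.34%) of 24 measured, and CA1 had 2 higher (3.09%) and 3 lower (4.77%) of 23. Pou3f2 was among the lower in both. CA3 against CA1 had 4 higher (14.1%), Zbtb18 among them (296.3 and 54.8 CPM, with 5 of 5 and 8 of 14 cells), and 2 lower (11.2%) of 20 measured.

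Cortical culture against slice had 2 of 24 measured higher (background 19.2%) and 2 lower (1.39%). Pou3f3 was higher in culture, with 127.6 and 11.1 CPM and 10 of 13 and 2 of 22 cells, and so was Nfib, a nuclear factor I gene, with 1427 and 310.5 CPM and 13 of 13 and 12 of 22 cells. Hippocampal culture against slice had 3 of 23 measured higher (40.1%) and 2 lower (0.892%). Among the higher was Mef2c, an activity-dependent factor, at 456.5 and 42.1 CPM and in 8 of 8 and 8 of 19 cells. Hippocampal against cortical culture had 1 of 23 measured higher (23.8%) and 4 lower (3.01%). Cultured neurons against astrocytes had 4 of 25 measured higher (5.17%) and 2 lower (14.2%). Myt1l, a neuronal repressor of other fates, was among the higher (332.3 and 0.0886 CPM), and Lmo4 (189.1 and 707.0 CPM) and Nfia (81.3 and 229.9 CPM) were the lower. Nfia is known as a factor of astrocyte development.

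The 8 cells whose titles give 2 libraries show how well detection repeats; a further pair, joined for the likeness of its counts, is left out here. In 72 combinations of a member with such a cell, 12 were detected in both libraries, 56 in neither and 4 in 1 of them. The 4 were Bcl11b in 2 cells and Neurod1 and Neurod2 in 1 cell each, all at 9.31 CPM or less in the library that detected them. The libraries of a cell correlated over all genes with r of 0.945 to 0.999.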

How the data were processed

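The data were counts of reads per gene from 158 single-cell libraries. The authors aligned reads with STAR and counted them with HTSeq on GRCm38 (mm10), per the submitters' processing notes, after basecalling with bcl2fastq 1.8.4 or 2.17. No source used here gives the tool versions, the annotation or the strand setting of the counting. The table deposited by the authors holds raw counts, whole numbers with no normalization.

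Samples were grouped by their labels. Counts of 9 cells with 2 libraries were added, 8 by their titles and 1 pair (titles J6_8min_20 and J6_4min_9) by the likeness of the counts. As no animal or culture is named, no test was made. Levels were counts summed over cells per 1000000 (CPM) with exact Poisson 95% intervals. Cells were thinned for detection, without replacement (seed 7) and to 1000000 counts, where at least 5 counts were called detected, with exact Clopper-Pearson intervals. Intervals and limits cover counting error only, since amplified reads are not independent molecules. Genes entered a comparison from 10 counts over both groups and 1 count in 3 cells. The pseudocount of log2 ratios was 1 CPM. Doublets were not called, as each cell was picked by pipette. Beyond the 9 members, the genes named were those most like each member (up to 3, r of at least 0.5), up to 4 of each gene list with the largest difference in detection, and Gad1, Slc32a1, Slc17a7 and Nrgn; a gene of the list of other transcription factors that met this rule is not reported here. Members and lists were chosen with earlier results of these data known. Alternatives changed the weighting of cells, scaling, pseudocount, filters, detection rule, depth, libraries, basecalling version, and cells left out. Leaving out each member's highest cell, leaving out neurons with under 1000 genes, summing hippocampal culture titles that share a number, and another seed (11) were added after the data had been seen. The computations used Python 3.11.15, numpy 2.4.6, pandas 2.3.3, scipy 1.17.1, matplotlib 3.10.9, R 4.3.3, edgeR 4.0.16 (TMM factors) and DESeq2 1.42.0 (size factors). They were tested on simulated cells with counting error alone. Those cells had no spread of their own, so the test cannot show how the calls fare with such spread.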

Additional observations from a re-analysis of the deposited data

Results flagged for a closer look

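In groups of 5 to 8 cells, a single highest or lowest cell stood apart from the others, by the gap to its neighbour relative to the whole range on the log2(CPM + 1) scale (Dixon's criterion), in 6 of 27 combinations of gene and group. The criterion flags about 1 in 20 groups by chance for independent normal values; these values are sparse, with many zeros, so that rate does not carry over, and the cells are not replicates. In CA3, the cell CA3-8 stood apart for Bcl11b at 7620 CPM, with the other cells at most at 0.133 CPM, and for Cux1 at 50.7 CPM, with the others at most at 0.510 CPM. This cell also had the highest Neurod2 level of the CA3 cells and no Slc17a7 count. In hippocampal culture, M9D was the only cell without a Cux2 count (0 CPM), and M1D had the highest Fezf2 level at 7.89 CPM. Among F cells of the cortical slice, F2 held the only Neurod6 counts (0.361 CPM) and the highest Tbr1 level (3.07 CPM), both low beside the P cells that detected these genes.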

How the results depend on the processing

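Of the 25 pairs of a member and a comparison that met the size rule, 21 kept their direction and 6 also met the rule under every alternative run. The 6 were Neurod2 for P over F, Bcl11a for cortical culture over slice, Neurod2 and Neurod6 for CA3 over P, Cux2 for hippocampal culture over slice, and Bcl11a for neurons over astrocytes. Other scalings shifted the log2 ratios of all genes by between -0.96 (TMM, hippocampal culture over slice) and 0.48 (TMM, CA3 over P), and by -1.14 and 0.84 with DESeq2 factors. The direction turned for Bcl11a in hippocampal culture over slice with DESeq2 factors (-0.11), and for Bcl11b in CA1 over P without neurons with microglia markers (-2.17). It also turned for Neurod2 in CA3 over CA1 with v1.8.4 alone (-2.79), without the deepest cells (-1.01) and without CA3-8 (-0.71, against 3.25 without the highest CA1 cell), and for Cux1 in P over F without F2 (0.017, against -3.59 without the highest P cell). The causes were not tested.

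Counts of members meeting the rule moved as follows. P over F had 2 higher and 0 lower with v2.17 alone, 1 lower with a pseudocount of 5 CPM and 0 lower without neurons under 1000 genes; leaving out single cells gave 0 to 4 lower. Cortical culture over slice had 4 higher and 1 lower with v2.17 alone, and 1 higher and 2 lower with v1.8.4 alone. It had 1 higher with TMM, DESeq2 and the first library of repeated cells. Without neurons with microglia markers, with astrocyte markers, under 1000 genes, or without the highest cell it also had 1 higher. It had 1 lower at detection of 1 count, without the astrocyte-marker neurons and without those under 1000 genes. CA1 over P had 0 higher and 0 lower at detection of 1 count, 0 higher with v2.17 alone, and 2 of each with v1.8.4 alone. It had 3 higher without microglia-marker neurons, 2 lower without astrocyte-marker neurons and 3 lower without those under 1000 genes; leaving out highest cells gave 0 to 2 higher.

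CA3 over P had 0 lower at detection of 1 count, 3 lower with v1.8.4 alone and without neurons under 1000 genes, 2 lower without the deepest cells and the astrocyte-marker neurons, and 4 higher without microglia-marker neurons; leaving out single cells gave up to 4 higher and 1 to 2 lower. CA3 over CA1 had 1 higher with the mean of the cells' CPM, detection at 1 count, either basecalling version alone and without the deepest cells. It had 1 lower at detection of 1 count and without the deepest cells or microglia-marker neurons, and 2 lower with v1.8.4 alone; leaving out single cells gave 0 to 2 higher and 0 to 1 lower. Hippocampal over cortical culture had 1 higher with the mean of the cells' CPM, TMM, DESeq2, a pseudocount of 5 CPM, detection at 10 counts, a depth of 500000, and without the deepest cells or the titles ending in D; leaving out highest cells gave 0 to 5. Hippocampal culture over slice had 1 higher with TMM and DESeq2, 0 lower at a depth of 500000 and with v2.17 alone, and 2 lower without microglia-marker neurons or those under 1000 genes; leaving out highest cells gave 0 to 2 lower. Neurons over astrocytes had 2 higher without astrocyte-marker neurons. No paired analysis was possible because no test was made and the labels pair no cells across groups. Depth touched calls too: at 500000 counts Neurod1 missed the rule for P over F and met it for CA3 over P.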

Other observations

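Of the cells with many members detected, some also held markers of other cell types. P2, with 8 members, detected 16 of 16 neuron markers, 11 of 16 astrocyte markers and 10 of 10 microglia markers, and 6172 genes in all. J8_23, a cortical neuron of 15 days in culture with 6 members, detected 13 neuron, 15 astrocyte and 7 microglia markers. M1D, with 8 members, detected 16 neuron, 4 astrocyte and 0 microglia markers. The part of these markers in the number of members was not tested.

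In astrocytes, members other than Cux1 were detected in few cells, and Neurod2 and Neurod6 in none, but some members were high in single cells. Among astrocytes, J113_5 held 65.98 CPM of Tbr1 and 5.39 CPM of Cux2, J117_10 held 98.9 CPM of Bcl11b, J215_13 held 210.3 CPM of Bcl11a and J265_3 held 58.5 CPM of Neurod1. The 7-day astrocyte J50_8 held 583.1 CPM of Cux1, the highest level of that gene in any cell, with 26.6 CPM of Bcl11a, 13.3 CPM of Tbr1 and 6.18 CPM of Slc17a7.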
